A study of Rattus norvegicus with 4 samples.

Results

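The 10 genes described here encode Janus kinases (Jak1, Jak2), signal transducers and activators of transcription (Stat3, Stat5a, Stat5b, Stat6) and suppressors of cytokine signalling (Socs1, Socs2, Socs3, Cish). They were found through the RefSeq accession that the array files give for each probe, and all 10 were measured, by 12 probes in 21 spots per array, out of 16581 named genes. The cells were NR8383, a macrophage line established from rat lung lavage, taken after 20 passages, grown for 48 h and exposed for 4 h to 1.2 cm2/cm2 of carbon nanotubes carrying amino groups (NRCWE049). The 4 samples are biological replicates of this single exposed group, and unexposed cells were not analysed here, so the values describe exposed macrophages and no gene can be called changed by the nanotubes. A line is a limited model of a lung macrophage, and it holds no other lung cells.

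Cytokine receptors of this family have no kinase of their own. Binding of a cytokine brings receptor-bound JAK kinases together, the kinases phosphorylate the receptor tails, and STAT proteins dock there, are phosphorylated, pair up and enter the nucleus. STAT proteins then switch on genes that include the SOCS genes, whose products block the receptor or the kinase, which makes a negative feedback loop. In macrophages, the IL-6 and IL-10 receptors act mainly through STAT3, the GM-CSF receptor through JAK2 and STAT5, and the IL-4 receptor through STAT6. SOCS and CISH transcripts are therefore widely read as a record of recent cytokine signalling, whereas JAK and STAT activity depends on phosphorylation, which an RNA array does not measure.

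STAT dimers bind palindromic DNA of the form TTCNNNGAA, and STAT6 prefers TTCNNNNGAA. The 250 bases before the annotated start of Cish and of Socs1 are printed because they were the only windows with the first motif among the 8 members that the RefSeq promoter table (build GRCr8) holds, and because Cish was the member that varied most between replicates. Jak1 and Socs2 are missing from that table. Capitals mark TTCNNNGAA, and in Socs1 also GAAANNGAAA, a form bound by interferon regulatory factors; both strands were searched, and the letters were chosen after the windows had been read. The Cish window lies at chr8:116850719-116850968 and the Socs1 window at chr10:5389324-5389573, both on the plus strand of GRCr8.
Cish: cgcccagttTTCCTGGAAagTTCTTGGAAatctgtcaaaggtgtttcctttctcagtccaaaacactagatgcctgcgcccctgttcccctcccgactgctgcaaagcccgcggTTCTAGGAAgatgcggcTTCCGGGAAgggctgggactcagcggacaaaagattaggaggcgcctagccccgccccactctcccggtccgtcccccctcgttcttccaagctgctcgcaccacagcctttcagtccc
Socs1: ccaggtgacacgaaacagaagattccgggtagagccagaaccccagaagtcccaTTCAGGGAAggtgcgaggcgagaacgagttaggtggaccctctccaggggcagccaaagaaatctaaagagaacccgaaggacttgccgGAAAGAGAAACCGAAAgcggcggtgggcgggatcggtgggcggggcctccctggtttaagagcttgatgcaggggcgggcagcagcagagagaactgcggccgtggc

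The Cish window held 4 matches to TTCNNNGAA. They were TTCCTGGAA (bases 241 to 233 before the start), TTCTTGGAA (230 to 222), TTCTAGGAA (136 to 128) and TTCCGGGAA (119 to 111). Of 33469 promoter windows of this length, 7.67% held at least 1 match, 7 windows held 3 or more and 2 held 4, the highest number found. Socs1 held 1 match, TTCAGGGAA (196 to 188), and 2 overlapping matches to GAAANNGAAA (107 to 98 and 101 to 92), a motif present in 3.41% of all windows. TTCNNNNGAA, present in 6.25% of all windows, was in none of the 8 member windows. A match describes letters in the window and does not show that a factor was bound in these cells.

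Values are given as the processed signal of a spot and as a level, which is the log2 signal minus that of the 75th percentile over the array's detected probes; a gene's level was followed between replicates and never set against another gene's. A gene was detected where its probe was well above background, by Agilent's flag, on all 4 arrays, which held for 52.5% of the named genes. The cells carried macrophage transcripts: all 13 measured macrophage markers were detected, among them Csf1r, Cd68 and Spi1, and none of 12 listed markers of epithelium, fibroblasts and endothelium. Of 5 measured lymphocyte markers, Cd4 alone was detected, a gene that rat macrophages also express. The listed B cell genes Cd79a and Ms4a1 had no named probe. Marker genes outside these lists, named after their values were seen, were detected: Cd3d, a chain of the T cell receptor complex (-4.78 ± 0.14, SD, n = 4), the endothelial cadherin gene Cdh5 (-5.02 ± 0.17) and the smooth muscle actin gene Acta2 (-5.42 ± 0.29). The lists therefore do not show that RNA of other cell types was absent. The 4 arrays lay on 1 slide. Replicates 3 and 4 were closer to each other (median difference of a detected gene 0.085 log2 units) than any other pair (0.149 to 0.206), and 53.8% of 1039 probes with 5 or more spots differed between them by more than 2 standard errors of the spots. Noise between spots of 1 array does not tell separate cultures from repeat arrays of 1 RNA; they were kept as separate samples because the labels give them as biological replicates, and with both averaged no member passed the test of spread given further on (Cish, adjusted p = 0.218, limma F test). The number of arrays limits the precision.

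Of the 10 genes, 8 were detected: both kinases, all 4 STAT genes, Socs3 and Cish. Neither Socs1 nor Socs2 reached that flag on any array. This share is read beside the 52.5% of all named genes, and RNA from a whole culture cannot tell fewer expressing cells from less RNA per cell. No spot of the 10 genes was flagged as an outlier.

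Jak1, a kinase shared by the IL-6, IL-10, IL-4 and interferon receptors, had signals of 6048, 5608, 8359 and 8335 in replicates 1 to 4 with its brighter probe (A_44_P1164351). After scaling these were levels of 1.62, 1.50, 1.75 and 1.79, a mean of 1.67 ± 0.13 (SD, n = 4), so replicate 4 was highest and replicate 2 lowest, 1.23-fold apart. A dimmer Jak1 probe (A_64_P124417) gave -2.42, -2.40, -2.44 and -2.08. With this probe replicate 4 stood above the other 3, which were close together, so the probes agreed on the highest replicate and not on the order of the rest.

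Jak2, the kinase of the GM-CSF, growth hormone and erythropoietin receptors, gave signals of 108, 114, 146 and 197 from 1 probe, at 6.35 to 9.80 times the lowest signal that counted as well above background on the same array. The levels were -4.18, -4.12, -4.09 and -3.61 (mean -4.00 ± 0.27, SD, n = 4). Replicate 4 was higher than the other 3. Without it the range between replicates was 0.087 log2 units in place of 0.578.

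Stat3, which carries the IL-6 and IL-10 signal, had signals of 1678, 2632, 3405 and 3060. Its levels were -0.23, 0.41, 0.45 and 0.35 (mean 0.24 ± 0.32, SD, n = 4). Replicate 1 was low and the other 3 were close together, with a range of 0.097 log2 units without replicate 1 against 0.681 with it. The detected spots of other genes around the Stat3 spot on array 1 had a median deviation of 0.04 from the other arrays, so that area of the array was not dim.

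Stat6, the factor of the IL-4 and IL-13 receptors, had signals of 394, 593, 643 and 754. Its levels were -2.32, -1.74, -1.95 and -1.67 (mean -1.92 ± 0.29, SD, n = 4), with replicate 1 again lowest. Its range was 0.650 log2 units, and 0.287 without replicate 1.

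Stat5a and Stat5b encode near-identical factors of GM-CSF, prolactin and growth hormone signalling, and in the GRCr8 gene table they neighbour each other and Stat3 on chromosome 10. Stat5a had signals of 7443, 7660, 10332 and 10212, and levels of 1.92, 1.95, 2.05 and 2.09 (mean 2.00 ± 0.08, SD, n = 4). Stat5b had signals of 417, 433, 546 and 539, and levels of -2.24, -2.19, -2.19 and -2.16 (mean -2.19 ± 0.03, SD, n = 4). Both genes thus differed little between replicates, 1.12-fold and 1.06-fold from lowest to highest. Probe sequences are not used here, so how far each probe also binds the transcript of the other gene was not tested.

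Cish, a SOCS family gene whose product competes with STAT5 for receptor tails, varied most. Its signals were 645, 333, 248 and 262, and its levels -1.61, -2.57, -3.33 and -3.20 (mean -2.68 ± 0.79, SD, n = 4). Replicate 1 was highest, replicate 2 intermediate and replicates 3 and 4 lowest, 3.30-fold between the extremes. Agilent's error estimate for each of these 4 spots was 10.0% to 10.2% of the signal, much as for the Stat3 and Stat5a spots (10.0%). It was also 10.0% for a Socs3 spot in a dim area of array 1, so it does not measure the noise of a single spot. Cish had 1 spot per array, so its noise between spots was not measured. The surrounding spots of other genes had median deviations of 0.14, -0.06, 0.01 and -0.04. Cd4, listed as a lymphocyte marker though rat macrophages also express it, was also highest in replicate 1, at -3.21, -3.46, -3.86 and -4.22. Cd3e, Cd3g, Cd8a and Ncr1 were well above background on no array. Cd3d, outside the list, was detected with an SD of 0.14 log2 units, and Cd79a and Ms4a1 had no named probe. The part of Cd4-bearing cells in the Cish values was not tested. Without replicate 1 the Cish range was 0.767 log2 units in place of 1.72.

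Socs3, whose product inhibits JAK kinases bound to the IL-6 receptor, was measured by 10 spots of 1 probe (A_44_P1110503) on every array. The mean signals were 1064, 1081, 893 and 913, and the levels -0.89, -0.87, -1.48 and -1.40 (mean -1.16 ± 0.32, SD, n = 4). After scaling, replicates 1 and 2 were high and replicates 3 and 4 low, 1.52-fold between the extremes. The size depended on the scaling. Scaled on the median of all probes, the range was 0.401 log2 units in place of 0.608 (unadjusted p = 0.528 in place of 0.0449, limma F test). The spots of 1 array had an SD of 0.04, 0.05 and 0.06 log2 units in replicates 2 to 4 and of 0.21 in replicate 1, where 1 spot of signal 717 lay in a dim area of the array. Apart from this spot, the lowest of the spots in replicates 1 and 2 (-0.94) was above the highest in replicates 3 and 4 (-1.29). These spots are technical repeats of each array and not further replicates. A second, dimmer Socs3 probe (A_64_P125883, 1 spot) gave -4.36, -3.94, -4.50 and -4.56, also with replicates 3 and 4 lowest but with replicate 1 nearer to them than to replicate 2.

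**Figure D1:**
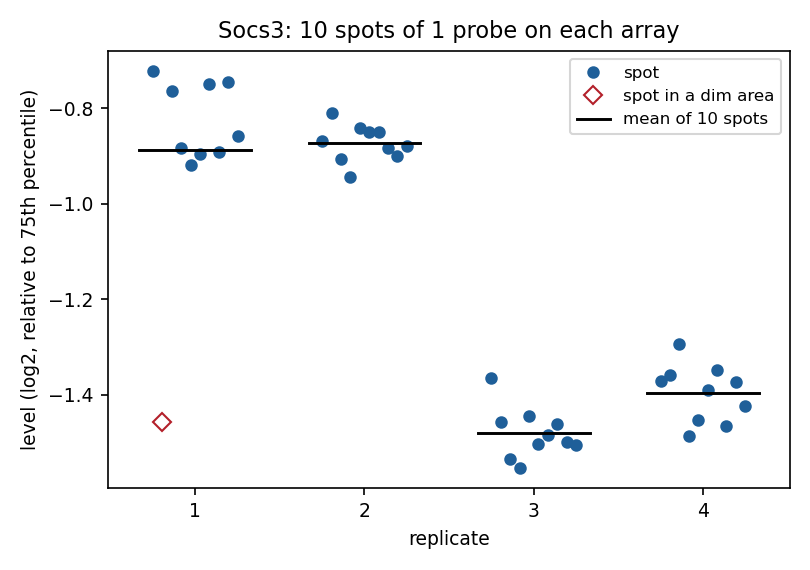
Level of each of the 10 spots of the brighter Socs3 probe (log2, scaled to the array's 75th percentile) on the arrays of the 4 exposed replicates, with the mean of the spots as a line and the spot in a dim area as an open diamond. The means of replicates 1 and 2 were -0.89 and -0.87, and those of replicates 3 and 4 were -1.48 and -1.40.

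Socs1, whose product inhibits JAK kinases after interferon stimulation, had signals of 12.3, 18.7, 20.0 and 19.4. These lay close to the lowest signal that counted as well above background on the same array, at 0.743, 1.04, 0.994 and 0.963 times that signal, and above 98.7% to 100% of the 308 negative control spots. Agilent's weaker flag for positive and significant signal held on all 4 arrays, so Socs1 was near the limit of detection. Socs2, which restrains growth hormone signalling, had signals of 4.64, 4.61, 5.23 and 4.93, at 0.245 to 0.279 times the lowest well-above-background signal. Between 72.1% and 91.2% of the negative control spots were dimmer. Each gene had 1 probe, so a transcript that this probe misses would not be seen.

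**Figure D2:**
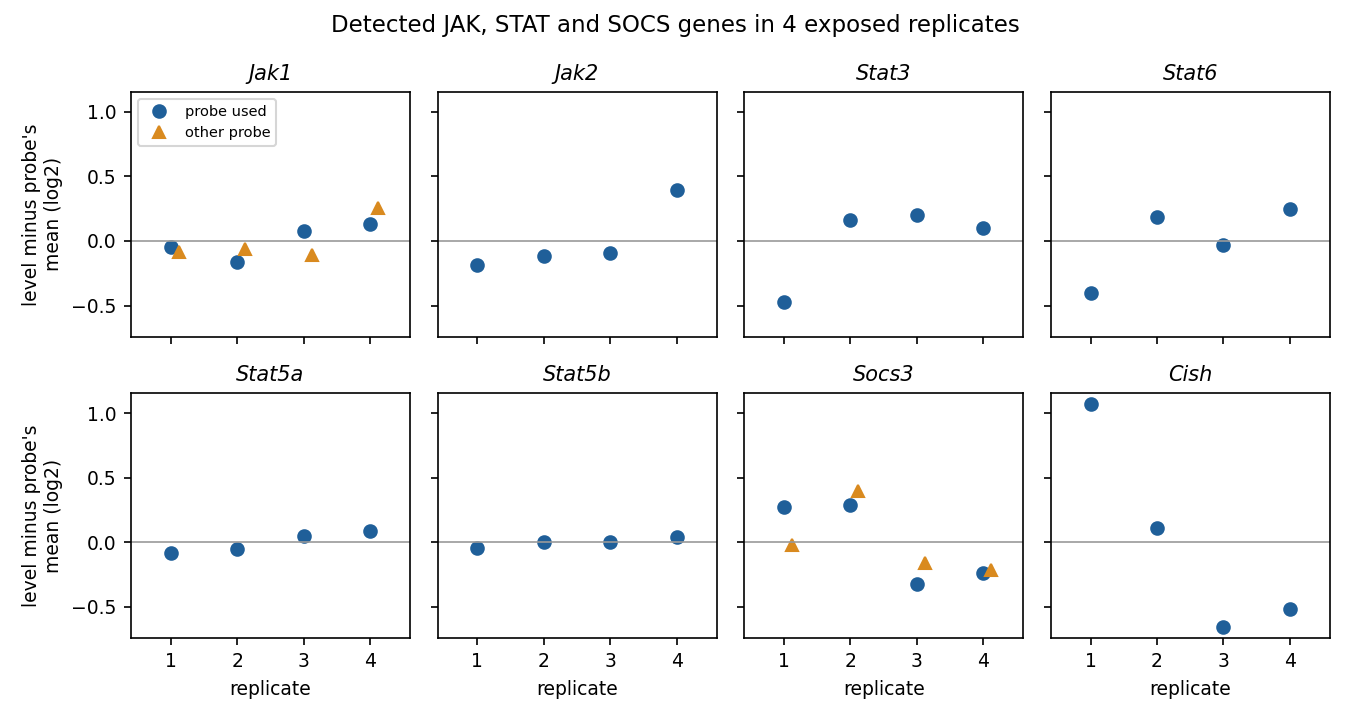
Level of each detected gene in the 4 exposed replicates, as the log2 difference from the probe's own mean, with circles for the probe used and triangles for a second probe of Jak1 and Socs3. Cish ran from 1.07 above its mean in replicate 1 to 0.65 below it in replicate 3, whereas Stat5b ran from 0.04 below its mean to 0.04 above it.

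Of the 6 kinase and STAT genes, 5 were lowest in replicate 1 and 5 highest in replicate 4, where 28.5% of all detected genes were lowest in replicate 1 and 24.7% highest in replicate 4. With scaling on the median of all probes only 2 of the 6 were lowest in replicate 1, with normexp background correction 3 (Jak2 was then lowest in replicate 3), and with the 75th percentile of all probes 4 were lowest in replicate 1 and 2 highest in replicate 4. Cish and Socs3 were both lowest in replicate 3, as were 20.4% of detected genes, and this held under each of these scalings. The second probes differed, that of Jak1 being lowest in replicate 3 and that of Socs3 in replicate 4. Of the 6 other detected JAK, STAT and SOCS genes named further on, 4 were highest in replicate 1. Only 1 of them was lowest there, and 1 was highest in replicate 4. Jak3 was highest in replicate 1 and lowest in replicate 4. Tyk2 was highest in replicate 1 and Stat2 in replicate 4, and both were lowest in replicate 2. No difference between the families was tested.

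No gene of the 8 passed the test of spread between replicates. The test was an F test of each gene's variance against that expected at its intensity (limma, Benjamini-Hochberg over 8713 genes), and 0.0115% of these genes (1 gene) passed it. In simulated arrays the test missed nearly all genes whose SD was raised about as much as that of Cish, so a gene that did not pass is not shown to vary like other genes of its level. The smallest adjusted p of the 8 was that of Cish (0.693, limma F test; 0.162 to 0.928 over its 12 alternatives). Without adjustment, 3 of the 8 were under a p of 0.05 in limma's F test, beside 4.3% of all genes tested. These were Cish, Stat3 (adjusted p = 0.969) and Socs3 (adjusted p = 0.969). The SD of Cish was 4.50 times the SD expected at its level and ranked 22 among 8713 genes. That of Stat3 was 2.62 times, of Socs3 2.30 times and of Stat6 1.87 times the expected SD, and that of Stat5b 0.21 times, which was smaller than that of all but 2.3% of the genes. The highest replicate was more than 1.5-fold above the lowest for 4 of the 8 (Stat3, Stat6, Socs3 and Cish), beside 17.2% of all detected genes, and more than 3-fold for Cish alone, beside 0.333%. The median SD was 0.28 log2 units for the 8 genes and 0.15 for all detected genes.

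**Figure D3:**
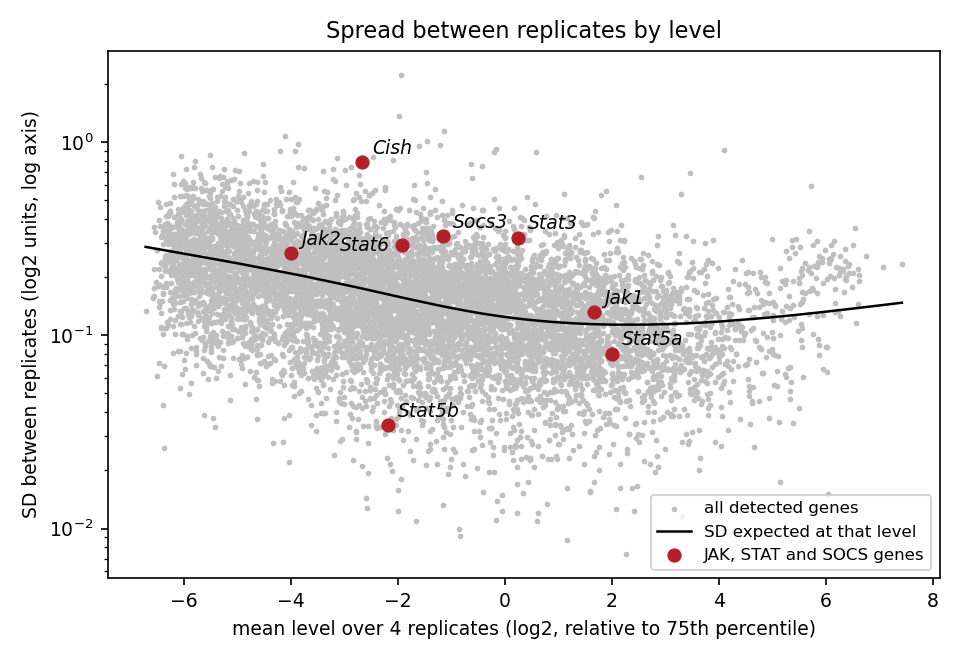
SD between the 4 exposed replicates (log2 units, log axis) against mean level (log2, scaled to the array's 75th percentile) for 8713 detected genes in grey, with the 8 detected JAK, STAT and SOCS genes in red and the SD expected at each level as a line. Cish (SD 0.79) lay above most genes of its level and Stat5b (SD 0.03) below most.

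Other genes of the pathway were listed by role. Of 91 measured, 59 (64.8%) were detected, beside 52.5% of all named genes. Of the other JAK, STAT and SOCS genes, 6 of 7 were detected. Jak3, the kinase of the common gamma chain, had a level of -3.72 ± 0.27 (SD, n = 4), Tyk2, a kinase of the interferon and IL-10 receptors, -2.22 ± 0.15, and Stat2, a factor of the type I interferon receptor, 1.09 ± 0.12. Socs4, Socs5 and Socs6 were also detected, and Stat4, which carries the IL-12 signal, was well above background on no array. None of these 6 passed the variance test at an unadjusted p under 0.05 (limma F test), beside 4.3% of all genes.

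Ligands of these receptors were mostly not detected, with 3 of 22 detected: Il7 (-3.10 ± 0.23, SD, n = 4), Osm, the gene of the IL-6 family cytokine oncostatin M (-5.01 ± 0.28), and Csf3, which encodes G-CSF (-2.72 ± 0.15). Il6, Il10, Il4, Il13, Csf2, Ifng and Ifnb1 were well above background on no array, Lif on 2 and Cntf on 3. The culture medium held serum, whose cytokines an RNA array does not measure.

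Of the receptor genes, 16 of 25 were detected. Il6r had a level of -1.50 ± 0.24 (SD, n = 4), Il6st, which encodes the shared signal chain gp130, -1.77 ± 0.25, and Il10ra -5.85 ± 0.10. Il6r and Il6st were lowest in replicate 1, at -1.77 and -2.12, and Il10ra was highest there, at -5.75. Of the 16 receptor genes, 5 were lowest in replicate 1, beside 28.5% of all detected genes. Highest in replicate 1 were 4 of the 16, beside 34.6%. Both chains of the GM-CSF receptor, named after their values were seen, were detected. Csf2ra was at 0.40, 0.13, 0.17 and 0.27 in replicates 1 to 4, highest in replicate 1 as Cish was. Unlike Cish, Csf2ra was lowest in replicate 2. Csf2rb was at -4.32, -4.43, -4.24 and -4.07, highest in replicate 4. Each stayed within 1.29-fold, and a part of either in the Cish values was not tested. The other detected receptor genes were Il10rb, Il4r, Il13ra1, Il2rg, Il3ra, Il7r, Ifngr1, Ifngr2, Ifnar1, Ghr and Epor. Lifr, Osmr, Il11ra1, Il2ra, Il2rb, Il21r, Csf3r, Prlr and Lepr were well above background on no array.

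Of the phosphatases, PIAS proteins and adaptors, 16 of 17 were detected, with Irs1 as the exception. The phosphatase genes Ptpn1 (1.30 ± 0.07, SD, n = 4) and Ptpn2 (-1.61 ± 0.11) and the gene of the haematopoietic phosphatase SHP-1, Ptpn6 (5.14 ± 0.02), varied little. Ptpn11, which encodes the phosphatase SHP-2 and was named after its values were seen, had levels of -0.51, 0.28, 0.27 and 0.25 (adjusted p = 0.969, limma F test). It was thus low in replicate 1 only, as was Stat3. Of the 16 detected genes of this list, 7 were lowest in replicate 1, beside 28.5% of all detected genes. A link between Ptpn11 and Stat3 was not tested.

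Of 22 known STAT targets, 20 were detected. Pim1 (-4.76 ± 0.19, SD, n = 4) and Pim2 (-3.19 ± 0.17), kinase genes induced by STAT3 and STAT5, and Bcl3 (-2.07 ± 0.37) ran differently from Cish: all 3 were lowest in replicate 2. At an unadjusted p under 0.05, 3 of the 20 passed the variance test (limma F test), beside 4.3% of all genes, and none after adjustment. They were Bcl3, Bcl6 and the STAT6 target Arg1 (adjusted p = 0.969 for each, limma F test), and the last 2 were named after their values were seen. Arg1, which encodes arginase, was at -1.38, -0.67, -1.65 and -1.86, highest in replicate 2. Bcl6, a repressor gene, was at -0.47, -0.17, 0.04 and 0.22, lowest in replicate 1. Of the 20 targets, 5 were highest in replicate 1, as Cish was, beside 34.6% of all detected genes. Lowest in replicate 1 were 8, beside 28.5%. The 5, named after their values were seen, were Bcl2l1, Myc, Il4r, Ccl22 and Fcgr1a. Bcl2l1, at -4.19, -4.28, -4.70 and -4.45, was also lowest in replicate 3, as Cish was. Ccl22 was at 0.92, 0.77, 0.53 and 0.51, and Fcgr1a at 2.04, 1.91, 1.73 and 1.73. Ccl17 was well above background on 3 arrays and Vegfa on none.

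**Figure D4:**
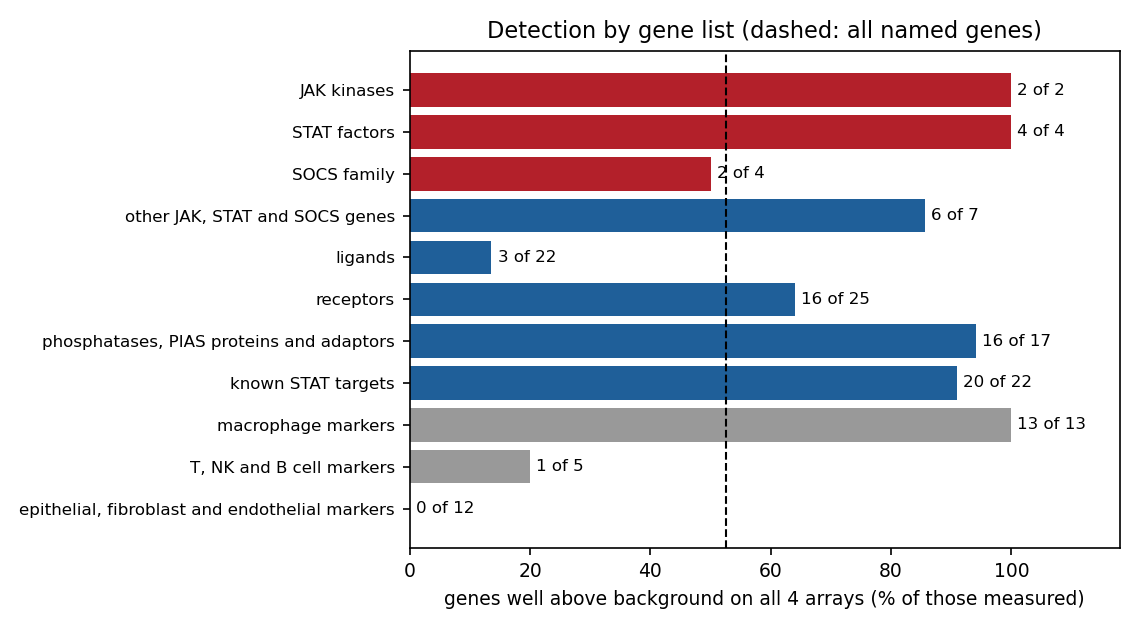
Share of measured genes well above background on all 4 arrays (percent) for the JAK, STAT and SOCS genes (red), related lists of the pathway (blue) and cell type markers (grey), with the number detected of the number measured and the share of all named genes (52.5%) as a dashed line. Ligands were detected in 3 of 22 cases and known STAT targets in 20 of 22.

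The genes whose deviations over the 4 arrays were nearest to those of Cish, by root mean square difference, were Camsap3 (0.16 log2 units), LOC681325 (0.22) and Tspan10 (0.22). Camsap3 was at -5.36, -6.11, -6.63 and -6.66 in replicates 1 to 4, and Tspan10 at -2.69, -3.18, -3.87 and -3.78. In replicates 3 and 4 Camsap3 lay little above the lowest signal that counted as well above background. For Socs3, the member with the next largest SD, they were Top1, Or2d3 and Usp18, at 0.02 to 0.03 log2 units. Or2d3 was also dim, at a mean level of -6.00. Usp18 was at -3.10, -3.05, -3.72 and -3.63. Likeness over 4 arrays describes these arrays only.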

How the data were processed

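Total RNA of 4 samples (100 ng each, RNA integrity above 7.5) was labelled with Cy3 and hybridised to one-colour Agilent rat arrays, per the labels' protocols. The deposited intensity is the processed signal, background-corrected by Agilent Feature Extraction 11.0.1.1 (version per the submitters' processing notes); the sources used here give no normalization between arrays. Control spots and outlier-flagged spots were left out, spots of a probe averaged on the log2 scale, and each array scaled to the 75th percentile of the probes detected on all arrays (39.3% of 45598). Of these probes, 21109 were named through a RefSeq table of GRCr8, whose build differs from that of the file headers. A gene's level came from its brightest detected probe.

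The test of spread used limma 3.58.1 under R 4.3.3 (intercept fit, F test against the intensity trend), after a check on simulated data. A spot was in a dim area where at least 10 detected neighbours within 5 rows and columns had a median below -0.5. Named genes were all members, the first 3 detected of each related list, and the 3 genes nearest to the 2 members with the largest SD. Members and lists were chosen with earlier results of these data known, and some list genes are not reported here. Alternatives were other detection rules, scalings, normexp (on the median spot signal, since the files hold no mean signal), outlier and probe treatment, dim areas, variance models and leaving out each replicate; averaging replicates 3 and 4 was added after seeing the data. A slide block was not run, as there was 1 slide.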

Additional observations from a re-analysis of the deposited data

Results flagged for a closer look

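Dixon's ratio, the gap of the most extreme replicate to its neighbour over the whole range, passed its 95% critical value in 3 of 12 sets of 4 values (10 genes, and a second probe each for Jak1 and Socs3). For 4 independent normal values, chance flags about 1 set in 20, here 0.6 sets. The share of all detected genes that pass was not computed, and replicates 3 and 4 were closer than other pairs. The count is therefore not shown to be particular to these genes. For the dimmer Jak1 probe the ratio was 0.8888, with replicate 4 at -2.08 and the others at -2.42, -2.40 and -2.44; for the brighter Jak1 probe it was 0.3984. For Jak2 the ratio was 0.8405, with replicate 4 at -3.61 and the others at -4.18, -4.12 and -4.09. For Stat3 the ratio was 0.8519, with replicate 1 at -0.23 and the others at 0.41, 0.45 and 0.35.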

How the results depend on the processing

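The count of detected genes was 8 or 9 of 10 under 9 alternatives (9 with the positive and significant flag, which adds Socs1), and that of the related genes 54 to 66 of 91. No member passed the variance test under any of 14 alternatives (limma F test), with 1 to 3 at an unadjusted p under 0.05 and a smallest adjusted p from 0.162 (without replicate 4) to 0.933 (no intensity trend). Scaling on the median of all probes moved the median gene by -0.07, -0.16, 0.12 and 0.11 log2 units in replicates 1 to 4, and the range of Stat5a from 0.170 to 0.404, of Jak1 from 0.293 to 0.561 and of Stat5b from 0.083 to 0.306. The range of Cish ran from 0.767 to 1.74 over its 12 alternatives and that of Socs3 from 0.401 to 0.656. No paired analysis was possible because the labels give 1 group. Among the members, signal over background limits Socs1, Socs2 and Jak2 most.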
